A study of Rattus norvegicus with 288 samples.

Results

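Cytochrome P450 genes were followed in the bone marrow, heart and liver of rats given temsirolimus, sunitinib, sorafenib or their pairs. Members were all genes measured by a probe set with a single gene symbol that begins with Cyp and a digit, apart from 5 genes (Cyp4b1, Cyp7a1, Cyp8b1, Cyp27a1 and Cyp51) that were left out. This gave 53 of the 14218 genes measured, and where a gene had several probe sets, the brightest on average in a tissue was used. Temsirolimus, an inhibitor of the kinase mTOR, or its own vehicle was injected iv at 0.3 mg/kg, and 30 min later the rats received by mouth sorafenib at 25 mg/kg in F68/PG/PEG400, sunitinib at 5 mg/kg, F68/PG/PEG400 alone or sterile water. Sunitinib and sorafenib block receptor tyrosine kinases, and water was the oral control of sunitinib. The 96 animals were male Sprague-Dawley rats of 7 to 8 weeks with a cannula in the femoral vein, and 4 rats of each of the 8 treatments were killed at 1, 6 and 24 h. Every rat gave its left lateral and median liver lobes, the heart apex with ventricle and the marrow of the left femur, each for 1 array, so 96 arrays were available per tissue. Signals are log2 values from RMA, and 1 unit is a 2-fold difference. Differences are given with their standard error, and a member was called when its p from limma, adjusted over all genes of the comparison, was under 0.05.

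Cytochrome P450 enzymes are haem proteins that insert an oxygen atom into their substrates with electrons from P450 reductase or, in mitochondria, from ferredoxin. In the liver, families CYP1 to CYP3 oxidise drugs and other foreign compounds, and receptors such as AHR, CAR and PXR raise their genes when such compounds are present. CYP4 enzymes oxidise fatty acids under control of PPAR alpha, CYP26 enzymes break down retinoic acid, and the mitochondrial and steroid enzymes make or clear steroid hormones and vitamin D. In rats several CYP2 and CYP3 genes differ between the sexes under the pattern of growth hormone release.

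In the liver, 20 of the 53 members had a mean log2 signal of at least 12, 12 had 8 to 12, 13 had 6 to 8 and 8 were under 6. The median over members was 10.26, against 7.91 over all genes. In the heart the corresponding counts were 0, 7, 15 and 31 with a median of 5.79 against 7.91, and in bone marrow 0, 3, 9 and 41 with a median of 5.00 against 7.71. Tissues were normalized apart and probe sets differ in brightness, so these levels are a description. The members of CYP2C (7 genes), CYP3A (4), CYP2D (3), CYP2A and CYP2B (6) and CYP4A (3) have close copies, and the signal of a probe set from these families may include a relative. Cyp2b1, Cyp2b2 and Cyp4a2 were found only on probe sets that carry several symbols and are therefore not members. Levels in the liver included 14.57 for Cyp2c11, the main testosterone hydroxylase of male rat liver, 14.41 for Cyp2e1, which oxidises ethanol, 14.22 for Cyp3a2 and 13.35 for Cyp1a2, which oxidises caffeine. At the other end, Cyp1a1 had 6.32 and Cyp26a1 6.38, and 7 of the 9 steroid, sterol and vitamin D genes were below 8.

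The tissues matched their labels, with erythroid markers at 11.57 to 12.97 in all bone marrow arrays and cardiac muscle markers at 13.75 to 14.35 in all hearts against 5.37 to 6.05 in the livers. A list of 17 hepatocyte markers had a mean signal of 14.12 to 14.59 in livers and 5.02 to 6.06 in marrow, but of 6.06 to 14.06 in hearts. Of the 96 hearts, 31 lay more than 0.5 above the median of 6.47. The 4 rats of a group were parted into 2 pairs, here called array sets, which mostly follow the code in the study's array names. All 31 hearts were in 1 set at their time, with 11, 10 and 10 of 16 hearts in that set at 1, 6 and 24 h and 0 of 16 in the other. Whether liver RNA was present in these 31 heart samples was not tested. For any bulk tissue, the number of cells of a type and the RNA per cell cannot be told apart. The study dosed 2 rats of a group on each of 2 days without naming them, so array set and dosing day cannot be told apart. The liver array of rat 7M78 (vehicle and sunitinib, 24 h) had the lowest signal of all 96 livers for 19 members and the highest for 12. The study also singles out the liver array of rat 4M48 and the marrow array of rat 4M45 as possible outliers.

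The rats of a group differed more for some P450 genes than for most genes. The median SD within a group was 0.19 over members and 0.17 over all genes in the liver, and 9 members were above the 95th percentile of all genes. Cyp2c12, which is mainly expressed in female rats, had the widest spread of these male livers with an SD of 1.20 within groups and values of 8.60 to 13.92. It was followed by Cyp3a9 with an SD of 0.82 (7.12 to 11.77), Cyp4a8 with 0.78 (5.60 to 9.48), Cyp4v3 with 0.70 (6.82 to 12.75) and Cyp17a1 with 0.57 (7.48 to 10.46). Without rat 6M70, the SD of Cyp4v3 was 0.405 (10.95 to 12.75), below those of Cyp17a1, Cyp26b1, Cyp3a18 and Cyp1a1. The members Cyp2c11, Cyp2e1 and Cyp2d2 had SDs of 0.11, 0.11 and 0.07. Their mean signals of 14.57, 14.41 and 14.42 were at level percentiles of 99.8, 99.7 and 99.7 among all genes. Whether such bright probe sets register differences in full was not tested. In the heart 25 members were above the 95th percentile, and in bone marrow 1 was. Cyp2c7 and Cyp2c13 had SDs of 2.15 and 2.07 within groups of hearts. Over the 65 hearts without raised hepatocyte markers their SDs were 0.18 and 0.16, while Cyp2j4 and Cyp4v3 had 0.43 and 0.48 there.

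Enzymes of retinoic acid breakdown moved with the hours after dosing in the liver. Cyp26a1 and Cyp26b1 hydroxylate retinoic acid, and rat Cyp2c22 has the same activity. Over all 32 livers per time, Cyp26b1 had medians of 8.45, 6.56 and 7.61 at 1, 6 and 24 h, with ranges of 7.38 to 9.31, 5.34 to 7.49 and 6.27 to 9.16. The ranges at 6 h and at 1 h shared only the stretch from 7.38 to 7.49, and the livers at 24 h overlapped with both. Cyp26a1 had medians of 6.60, 5.88 and 6.54, and Cyp2c22 had 14.50, 14.21 and 14.53. The difference between 6 h and 1 h was -1.93 ± 0.11 for Cyp26b1 (adjusted p = 3.11e-24), -0.59 ± 0.07 for Cyp26a1 (adjusted p = 3.44e-10) and -0.33 ± 0.03 for Cyp2c22 (adjusted p = 2.13e-17). At 24 h Cyp26b1 was still lower than at 1 h by -0.83 ± 0.11 (adjusted p = 2.86e-08). In the 8 rats per time that had received vehicles alone, Cyp26b1 fell by 1.06 and Cyp2c22 by 0.25 at 6 h relative to 1 h (adjusted p = 0.00236 and 0.00149), and 2.71% of all genes were called in that comparison and 0.113% between 24 h and 1 h, where no member was. Averages over all treatments were chosen after the values were seen. The second probe set of Cyp26b1 moved less, with medians of 7.29, 7.00 and 7.17 and a difference of -0.31 between 6 h and 1 h over all treatments (adjusted p = 7.78e-09). It was not called in vehicle rats (-0.15, adjusted p = 0.489) or between 24 h and 1 h (-0.10, adjusted p = 0.0696). Hours after dosing and clock time cannot be told apart.

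**Figure D1:**
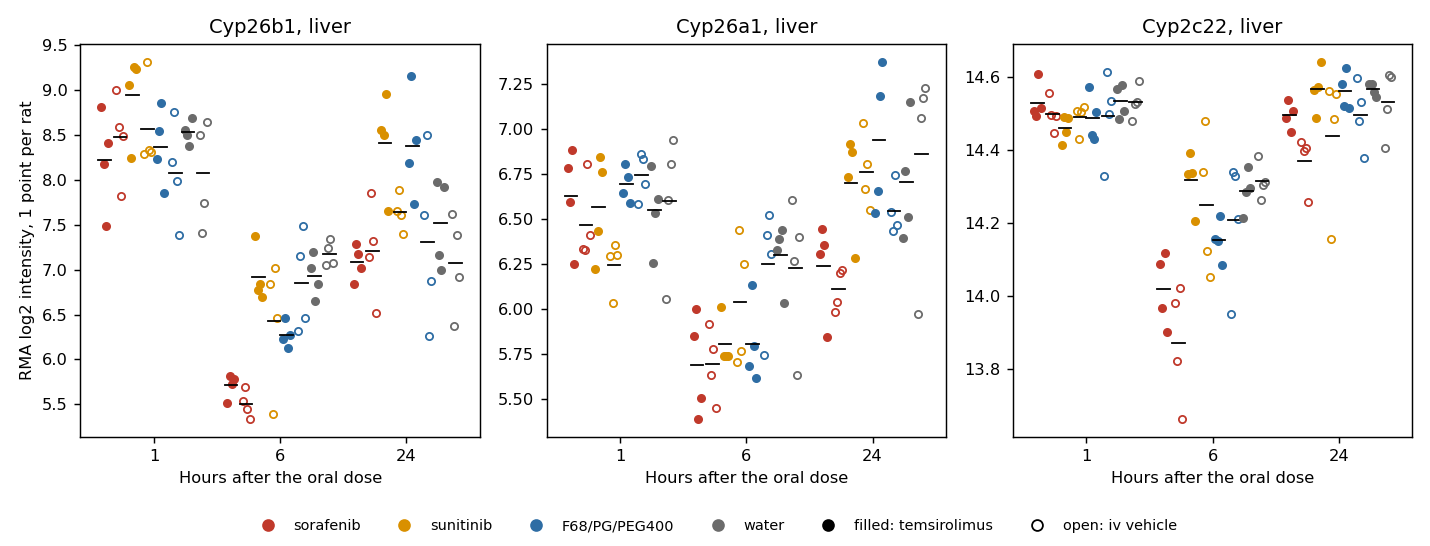
RMA signal (log2, vertical axis) of Cyp26b1, Cyp26a1 and Cyp2c22 in 96 livers by hours after dosing; points are single rats, filled with temsirolimus and open with its iv vehicle, oral agents are placed side by side and black lines are means. The 6 h livers have the lowest medians of all 3 genes, 6.56, 5.88 and 14.21.

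The upstream regions of these 3 genes are shown because the members moved together with the hours. They run from 250 bases before to 50 bases after the RefSeq start site in build GRCr8, and the table of promoters matched 42 of the 53 members. Capitals mark the core of the AHR response element, GCGTG on either strand, and a repeat of AGGTCA or AGTTCA with 5 bases between, the arrangement that retinoic acid receptors bind.
Cyp26a1, chr1:244883572-244883871, plus strand: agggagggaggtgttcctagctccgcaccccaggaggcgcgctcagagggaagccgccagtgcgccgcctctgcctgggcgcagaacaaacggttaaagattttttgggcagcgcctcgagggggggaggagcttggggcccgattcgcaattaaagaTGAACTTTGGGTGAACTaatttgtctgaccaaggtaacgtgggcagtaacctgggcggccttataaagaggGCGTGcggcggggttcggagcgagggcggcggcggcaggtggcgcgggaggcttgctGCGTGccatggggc
Cyp26b1, chr4:118616127-118616426, minus strand: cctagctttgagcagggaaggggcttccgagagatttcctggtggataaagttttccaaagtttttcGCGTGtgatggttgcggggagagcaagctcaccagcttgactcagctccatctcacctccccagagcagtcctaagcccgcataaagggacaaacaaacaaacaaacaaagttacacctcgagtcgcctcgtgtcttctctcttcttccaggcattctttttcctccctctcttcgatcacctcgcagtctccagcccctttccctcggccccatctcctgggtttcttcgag
Cyp2c22, chr1:248980718-248981017, minus strand: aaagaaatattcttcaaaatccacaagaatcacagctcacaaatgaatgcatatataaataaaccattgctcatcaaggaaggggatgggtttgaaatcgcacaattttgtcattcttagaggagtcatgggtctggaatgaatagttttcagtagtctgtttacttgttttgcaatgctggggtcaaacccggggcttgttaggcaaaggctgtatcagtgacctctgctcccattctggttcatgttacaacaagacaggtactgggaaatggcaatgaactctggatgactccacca
The repeat was found in Cyp26a1, where it begins 92 bases before the start site, and in 10 of 33469 promoters (0.0299%), which include 1 of the 42 members. This motif was chosen after the values were seen. GCGTG was present in Cyp26a1 and Cyp26b1, in 11 of the 42 members (26.2%) and in 29.7% of all promoters, and these letters are absent from the window of Cyp2c22. Whether any of these stretches is bound was not measured.

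Sorafenib alone was set against F68/PG/PEG400, both after the iv vehicle, with 4 rats each. At 6 h, 2 members were called in the liver and both were enzymes of retinoic acid, where 0.225% of all genes were called. Cyp26b1 had 5.54, 5.69, 5.45 and 5.34 in sorafenib rats and 6.32, 7.15, 7.49 and 6.46 in F68/PG/PEG400 rats. The groups did not overlap, which was true of 6.06% of all genes, and the difference was -1.35 ± 0.32 (adjusted p = 0.0329). Cyp2c22 had 13.98, 13.82, 14.02 and 13.66 in sorafenib rats and 13.95, 14.34, 14.33 and 14.21 in F68/PG/PEG400 rats, a difference of -0.34 (adjusted p = 0.0108). After temsirolimus and sorafenib, Cyp26b1 had 5.51, 5.82, 5.73 and 5.79, lower by -1.14 than in the same F68/PG/PEG400 rats but not called (adjusted p = 0.174). Averaged over both iv agents, with 8 rats against 8, Cyp26b1 was 5.34 to 5.82 with sorafenib and 6.13 to 7.49 with F68/PG/PEG400, again without overlap. That difference was -0.95 ± 0.22 (adjusted p = 0.0164), and Cyp2c22 fell by 0.24 (adjusted p = 0.00758). In this comparison 0.64% of genes were called and 0.309% did not overlap. Cyp26a1 was not called with sorafenib at 6 h, with -0.55 for the drug alone (adjusted p = 0.415) and -0.34 averaged (adjusted p = 0.403). With sorafenib alone at 6 h, the clock-controlled transcription factors Dbp and Tef were also higher, by 1.95 and 0.76. The clock time of killing is not given by group, so drug and clock time cannot be told apart here.

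The call of Cyp26b1 with sorafenib alone at 6 h rested on its brightest probe set. The second probe set had -0.18 (adjusted p = 0.872) in the 4 rats against 4 and -0.12 (adjusted p = 0.809) in the 8 against 8. Leaving out any of rats 2M16, 2M21, 2M22, 8M87, 8M88, 8M93 and 8M94 ended the call, with differences of -1.54 to -1.12 and adjusted p values of 0.0153 to 0.276 over all rats left out. Cyp2c22 was no longer called without 2M16, 2M21, 2M22, 8M88 or 8M94, and averaged Cyp26b1 was lost without 2M21. Within the 2 array sets, the difference of Cyp26b1 was -1.12 and -1.58.

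At 24 h the CYP1A signals were higher in sorafenib rats when both iv agents were averaged. Cyp1a1 is the classical target gene of AHR and Cyp1a2 its abundant hepatic relative. Cyp1a1 had 7.01, 6.60, 6.91 and 7.42 after temsirolimus and sorafenib and 7.70, 8.13, 7.32 and 6.49 after vehicle and sorafenib. It had 5.97, 6.17, 6.16 and 6.00 after temsirolimus and F68/PG/PEG400 and 6.75, 6.26, 5.92 and 6.15 after vehicle and F68/PG/PEG400. In 6 of the 8 sorafenib rats the signal was above that of every F68/PG/PEG400 rat, and the other 2 lay below the highest of them, at 6.75. Sunitinib rats at 24 h, over both iv agents, had 5.74 to 7.70 with a median of 6.13. Water rats had 5.92 to 6.63 with a median of 6.14. Averaged over the iv agents, Cyp1a1 rose by 1.02 ± 0.19 (adjusted p = 6.77e-04), with 1.07 and 0.98 within the 2 array sets and 0.91 to 1.15 with any rat left out, always called. The comparison of 4 rats with 4 gave 1.14 for sorafenib alone (adjusted p = 0.0659) and 0.71 for temsirolimus and sorafenib (adjusted p = 0.323), neither of which was called. The 2 effects of sorafenib, with and without temsirolimus, differed by -0.23 (adjusted p = 0.930).

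Cyp1a2 had 13.68, 13.88, 13.68 and 13.96 after temsirolimus and sorafenib and 13.34, 13.57, 13.17 and 13.16 after vehicle and F68/PG/PEG400 at 24 h. It was the member called in that comparison, in which 0.535% of genes were called, with a difference of 0.49 ± 0.11 (adjusted p = 0.0167). The groups did not overlap, as for 9.25% of genes, and the call was lost without 2M23, 2M24 or 6M72. Averaged over the iv agents, sorafenib was accompanied by 3 called members at 24 h among 0.295% of all genes. Cyp1a1 was given above, Cyp1a2 rose by 0.34 (adjusted p = 0.0300) and Cyp26a1 fell by 0.57 (adjusted p = 0.0464), with 5.85 to 6.44 in sorafenib rats and 6.43 to 7.37 in F68/PG/PEG400 rats. Cyp1a2 lost its call when any of 10 rats was left out and Cyp26a1 in 26 such fits and with the array code as a term (adjusted p = 0.0995). Without array-set terms neither of these was called (adjusted p = 0.0851 and 0.0524), nor without the liver array of 4M48 (adjusted p = 0.127 and 0.281). Cyp1b1, the remaining CYP1 gene, ranged from -0.16 to 0.35 over the 15 liver comparisons of 3 drugs and 2 pairs at 3 times and was not called (lowest adjusted p = 0.0510).

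**Figure D2:**
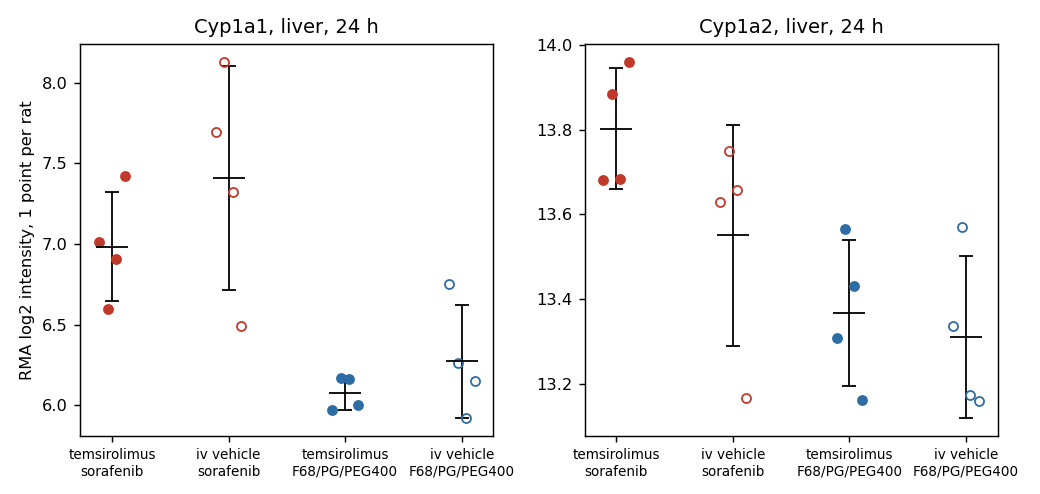
RMA signal (log2, vertical axis) of Cyp1a1 and Cyp1a2 in the liver at 24 h after temsirolimus and sorafenib, vehicle and sorafenib, temsirolimus and F68/PG/PEG400, and vehicle and F68/PG/PEG400; points are rats, bars the mean and SD of 4. Cyp1a1 reaches 8.13 in the sorafenib rats and 6.75 at most in the F68/PG/PEG400 rats.

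Temsirolimus was followed by small rises of several hepatic P450 genes at 24 h, when many other genes were called as well. Set against its vehicle within both oral vehicles, with 8 rats against 8, it gave 2 called members of 53. That share is near the 3.09% of all genes. Cyp26b1 was 7.00 to 9.16 with temsirolimus and 6.27 to 8.50 with its vehicle, a difference of 0.75 (adjusted p = 0.0438), and Cyp2j3, which turns arachidonic acid into epoxides, was 11.50 to 11.89 with temsirolimus and 10.78 to 11.59 with its vehicle, a difference of 0.51 (adjusted p = 0.0235). The ranges of both genes overlapped. The second probe sets had 0.17 for Cyp26b1 (adjusted p = 0.345) and 0.41 for Cyp2j3 (adjusted p = 0.251). Cyp2j3 lost its call without 1M11, 1M5, 2M17, 2M24 or 3M29 (0.44 to 0.59 over single omissions) and Cyp26b1 without any of 10 rats (0.61 to 0.92). Averaged over all 4 oral agents, with 16 rats against 16, 8 members rose and 1 fell at 24 h, where 11.9% of all genes were called, 7.93% as rises and 3.96% as falls. Cyp2j3 had a median of 11.73 (11.44 to 11.90) with temsirolimus and of 11.25 (10.14 to 11.59) without, a difference of 0.57 ± 0.10 (adjusted p = 2.08e-05). Its second probe set had 0.49 (adjusted p = 0.00572). Cyp26b1 had medians of 7.83 with temsirolimus and 7.39 without and rose by 0.54 (adjusted p = 0.0165), but by 0.07 on its second probe set. The other rises were 0.36 for Cyp2t1, 0.26 for the fatty acid hydroxylase Cyp4f6, 0.21 for Cyp2d3, 0.19 for Cyp1a2, 0.18 for the epoxygenase Cyp2c23 and 0.10 for Cyp2b3. Cyp4f17 fell by 0.32, with medians of 6.95 with temsirolimus and 7.27 without (adjusted p = 0.0306). The vehicle rats included 7M78. Without its liver array all 9 were still called, with Cyp2j3 at 0.50, Cyp2t1 at 0.25, Cyp4f6 at 0.17, Cyp2d3 at 0.16, Cyp2b3 at 0.06 and Cyp4f17 at -0.40. Single omissions ended the call of Cyp1a2 without 8M96 and that of Cyp4f17 without 1M6, 2M23, 6M66, 7M77 or 8M90 (-0.40 to -0.26). With the array code as a term, Cyp1a2 (0.16, adjusted p = 0.0901) and Cyp26b1 (0.50, adjusted p = 0.0662) were no longer called, and after renewed quantile normalization Cyp2b3 was not (0.047, adjusted p = 0.117).

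**Figure D3:**
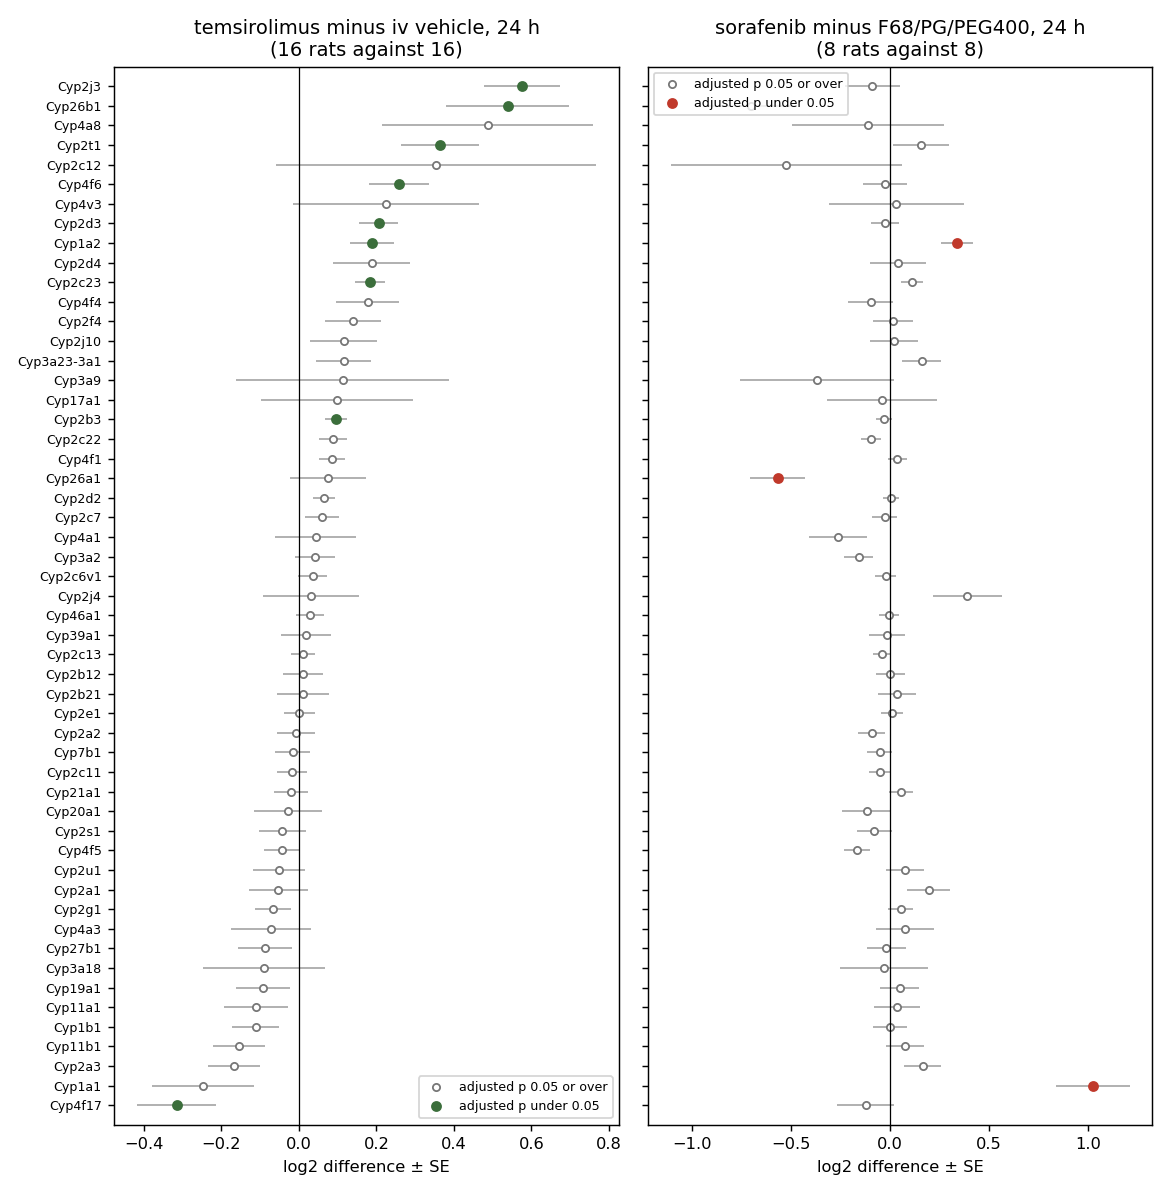
Difference of log2 signal (horizontal axis, points with standard errors) of the 53 members in the liver at 24 h, for temsirolimus minus its vehicle and for sorafenib minus F68/PG/PEG400, each averaged over the other agent; filled points have an adjusted p under 0.05. Temsirolimus has 9 filled points, of which 8 are rises, and sorafenib 3.

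Temsirolimus followed by sunitinib gave 1 called member in the liver at 24 h, where 1.06% of all genes were called. Cyp26b1 had 8.56, 8.49, 8.95 and 7.66, against 7.62, 6.37, 7.38 and 6.92 after vehicle and water. All 4 treated rats were above the 4 others, which held for 10.7% of genes, and the difference was 1.34 ± 0.32 (adjusted p = 0.0140). Within the array sets it was 1.37 and 1.31. The call was lost without 1M12, 1M6 or 5M59, and the second probe set had 0.25. In the rats that received temsirolimus and sorafenib, Cyp26b1 stayed at 6.84 to 7.29, against 7.73 to 9.16 after temsirolimus and F68/PG/PEG400, a difference of -1.30 that did not pass (adjusted p = 0.0751). The drug-alone comparisons and those of the pairs share control arrays.

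Sunitinib alone called 2 members in the liver at 24 h, where 9.99% of genes were called, and both calls rested on rat 7M78. Cyp11a1, which cleaves the side chain of cholesterol, had 0.48 (adjusted p = 0.0484) and Cyp19a1, the aromatase that makes oestrogens, had 0.41 (adjusted p = 0.0491). Without 7M78 the differences were 0.06 and 0.12, each with an adjusted p of 1.00. Averaged over the iv agents, neither sunitinib nor F68/PG/PEG400 called a member at any time, with 0.0481% of genes called and 27 of 318 member tests at an unadjusted p under 0.05 (8.49%, against 7.01% of all genes). When sunitinib or sorafenib was compared with its vehicle in temsirolimus rats, 0 of 318 member tests were called among 0.0469% of all tests, with 17 at an unadjusted p under 0.05. At 1 h, 0 of 318 member tests were called in 6 treatment comparisons, with 3 at an unadjusted p under 0.05, and 0% of all genes were called. The 7 further comparisons at 6 and 24 h called 0 of 371, with 24 at an unadjusted p under 0.05 and 0.0573% of genes called.

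Cyp2c11, Cyp2c12, Cyp2e1, Cyp17a1 and the CYP3A and CYP4A genes given here were called in none of the 15 liver comparisons of a drug or pair. Cyp3a23/3a1, a target of PXR, had differences of -0.24 to 0.28 with a lowest adjusted p of 0.421. Cyp3a2 had -0.15 to 0.10, Cyp3a18 -0.42 to 0.33 and Cyp3a9 -0.63 to 0.83. The PPAR alpha targets Cyp4a1 and Cyp4a3 had -0.41 to 0.09 and -0.34 to 0.14. Cyp2e1 had -0.12 to 0.22, and Cyp2c11, whose signal varies little, had -0.11 to 0.08. Both have very bright probe sets, and whether these register differences in full was not tested. Cyp2c12 had -1.09 to 1.22 and Cyp17a1, which makes precursors of sex steroids, had -0.86 to 0.34, and neither passed at that size, as the rats of a group differed widely. A probe set shared by Cyp2b1 and Cyp2b2, targets of CAR, had liver signals of 9.98 to 13.41.

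Further members moved with the hours in the liver when all treatments were averaged, with 32 rats per time. Between 6 h and 1 h, 11 members fell and 1 rose, where 25.3% of all genes were called, 10.3% as falls and 14.9% as rises. Apart from the retinoic acid enzymes, the largest falls were those of Cyp4a8 (-0.49 ± 0.19), Cyp17a1 (-0.37 ± 0.14) and Cyp4f6 (-0.23 ± 0.05). Cyp2j3 fell by 0.18 and Cyp2a2 by 0.11, and Cyp2e1, Cyp2b3 and Cyp4f1 each by less than that. The calls of Cyp4a8, Cyp2j3, Cyp17a1 and Cyp2e1 were lost in 38, 31, 21 and 2 of the fits that left out 1 rat. With the array code as a term, these 4 and Cyp2a2 were not called (adjusted p = 0.0812 to 0.13). Cyp4f17 rose, with medians of 7.48, 7.86 and 7.08 at 1, 6 and 24 h and a difference of 0.35 ± 0.07 (adjusted p = 1.05e-04) between 6 h and 1 h. Between 24 h and 1 h, 5 members fell and 4 rose, where 19.1% of genes were called, 12.7% as falls and 6.34% as rises. Cyp4f17 fell by 0.41, Cyp17a1 by 0.39, Cyp4a1 by 0.23 and Cyp2c11 by 0.10 beside Cyp26b1. Cyp2c12 rose by 0.80 ± 0.29 (adjusted p = 0.0442), Cyp2u1, a hydroxylase of long fatty acids, by 0.24 ± 0.05 (adjusted p = 6.72e-05), Cyp3a23/3a1 by 0.18 and Cyp1a2 by 0.15. Cyp2c12 was no longer called in 28 fits without 1 rat, nor was Cyp17a1 in 15. With the array code as a term, Cyp17a1 (-0.25, adjusted p = 0.318) and Cyp2c11 (-0.081, adjusted p = 0.0656) were not called, and after renewed quantile normalization Cyp4a1 was not (-0.18, adjusted p = 0.0575).

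Of 33 listed partners and regulators of P450 genes, 31 were measured. Dbp and Tef are clock-controlled transcription factors that act on P450 genes. Between 6 h and 1 h in the liver over all treatments 6 rose and 2 fell, which is 25.8% of the 31 against 25.3% of all genes, with Dbp at 2.47, Onecut1 at 1.29, Tef at 0.55 and P450 reductase (Por) at 0.21. Between 24 h and 1 h 3 rose and 6 fell (29%, against 19.1% of all genes), among them Ahr at -0.52 and the PXR gene Nr1i2 at -0.21. Sorafenib alone at 6 h called 3, all rises (9.68%, against 0.225% of all genes), Dbp at 1.95 (adjusted p = 0.00199), Tef at 0.76 and Ppara at 0.73. Sunitinib alone at 6 h called 1 (3.23%, against 0.12%), Dbp at 2.16 (adjusted p = 9.61e-04). Clock times of killing are not given for the groups, so drug and clock time cannot be told apart in these comparisons. Temsirolimus averaged over the oral agents had 7 rises and 2 falls at 24 h (29%, against 11.9%), which included Onecut1 at 1.17, the growth hormone signal carrier Stat5b at 0.32, the mitochondrial electron donor Fdx1 at 0.30 and Fech, the last enzyme of haem synthesis, at 0.25. The AHR-induced gene Tiparp was at 0.26. The 2 falls were Cyb5b at -0.30 and Ppox at -0.23. Temsirolimus alone at 24 h called only Cyb5b, at -0.43 (3.23% of the 31, against 3.09% of all genes). For sorafenib averaged at 24 h limma called 0 of the 31, with 4 at an unadjusted p under 0.05, and 0.295% of all genes.

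In the heart, many P450 signals went with the level of hepatocyte markers in the same sample. In the 65 hearts without raised hepatocyte markers, 25 members had a signal lower by more than 4 than in the liver, and 8 had a higher one. Cyp2c13 had 4.68, Cyp2c11 5.40 and Cyp2e1 7.05 in those hearts. Cyp1b1 had 7.80, Cyp11a1 8.03 and Cyp20a1, a P450 of uncertain substrate, 9.83. Over the 96 hearts, 16 members had a Pearson correlation above 0.9 with the hepatocyte level, which shares its array with them. Their rank correlations (rho) were lower, from 0.575 for Cyp4f1 to 0.873 for Cyp2c7. The highest heart, that of rat 6M68, had 13.99 for Cyp2c13 with 14.30 in the liver of the same rat.

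**Figure D4:**
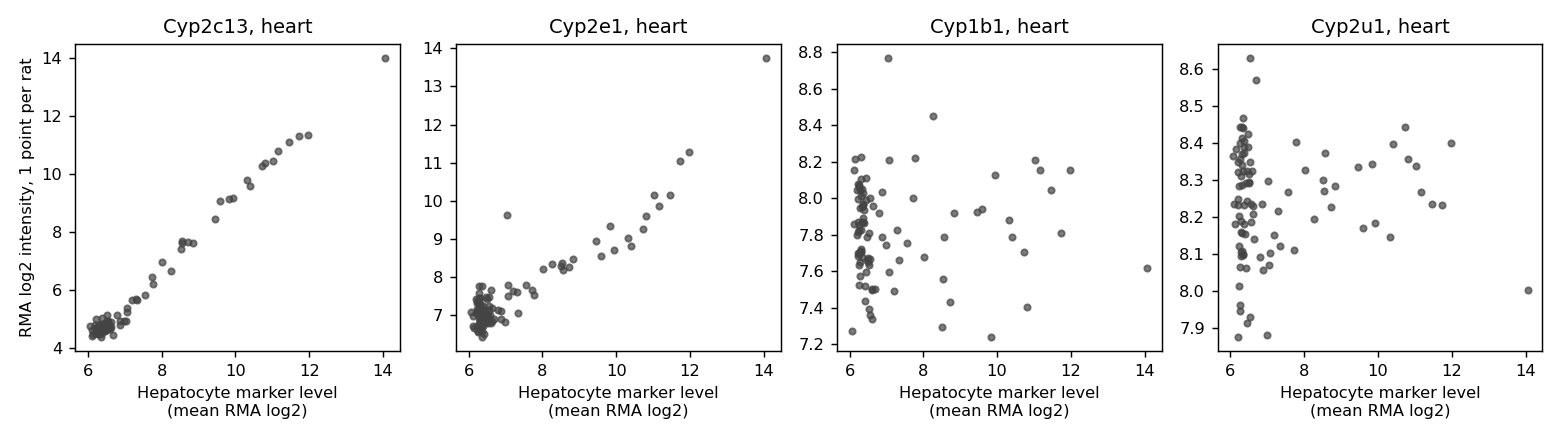
RMA signal (log2, vertical axis) of Cyp2c13, Cyp2e1, Cyp1b1 and Cyp2u1 in 96 hearts against the mean signal of hepatocyte markers in the same array (log2, horizontal axis). Cyp2c13 goes with the markers up to 13.99.

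None of 954 member tests in the 6 treatment comparisons and 3 times was called in the heart, with 102 at an unadjusted p under 0.05 (10.7%, also 10.7% of all genes) and 0.767% of all gene tests called. Averaged over the oral agents, temsirolimus at 6 h called 10 members, all higher, where 0.992% of genes were called. These included Cyp2c7 at 2.70, Cyp2c13 at 2.60, Cyp2c11 at 2.16 and Cyp3a2 at 2.08, all hepatic genes. Hepatocyte markers were raised in 8 of the 16 temsirolimus hearts and in 2 of the 16 others at that time. The differences of the 10 members were 1.01 to 5.40 within the first array set and 0.005 to 0.185 in the second. All 8 temsirolimus hearts of the first set had raised markers, so leaving out the hearts with raised markers left only the comparison within the second set, where none was called. At 24 h Cyp20a1 had -0.15 (adjusted p = 0.0336) among 2.12% of genes, and -0.10 (adjusted p = 0.372) without the hearts with raised markers. It was also not called with the array code as a term (adjusted p = 0.0646).

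The fall of Cyp26b1 at 6 h was also measured in the heart. In vehicle rats it was the member called between 6 h and 1 h, at -0.24 (adjusted p = 0.0316) among 1.08% of genes, and the heart's second probe set, the one kept in the liver, had -1.31 (adjusted p = 2.21e-05). The call of the kept probe set was lost without any of 10 rats (-0.28 to -0.22), with the array code as a term (-0.20) and without the hearts that had raised hepatocyte markers (-0.29, adjusted p = 0.264). Over all treatments, that probe set had medians of 7.56, 6.11 and 7.31 at 1, 6 and 24 h and fell by 1.45 (adjusted p = 4.02e-19), and the kept one had 7.34, 7.08 and 7.28. With 14.4% of genes called, Cyp26b1 (-0.27, adjusted p = 1.66e-10) and Cyp2d4 (-0.10) fell and Cyp2u1 (0.11) and Cyp4f5 (0.21) rose between 6 h and 1 h. Cyp2u1 rose by 0.17 between 24 h and 1 h, where 10.9% of genes were called. Over all treatments without those hearts, Cyp26b1 was still called at -0.26 (adjusted p = 0.00204) and the others were not.

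Bone marrow had few P450 signals above the lower range, and 3 of 954 member tests were called, with 46 at an unadjusted p under 0.05 (4.82%, against 7.31% of all genes) and 0.434% of gene tests called. Sorafenib alone at 24 h raised Cyp46a1, a cholesterol hydroxylase best known from neurons, with 8.44, 8.33, 8.37 and 8.47 in sorafenib rats and 8.11, 8.12, 8.08 and 8.02 in F68/PG/PEG400 rats. The groups did not overlap, as for 12.4% of genes, and the difference was 0.32 (adjusted p = 0.00456) among 3.7% of genes called. It was lost without 8M96, and it was 0.24 (adjusted p = 0.333) with the array code as a term. That code partly follows the treatment here, since sorafenib rats 8M95 and 8M96 did not share the code of control rat 2M24 in the same array set. Temsirolimus and sorafenib at 24 h gave Cyp11a1 at 0.40 (6.12 to 6.49 against 5.50 to 6.14, adjusted p = 0.0376) and Cyp2s1 at 0.51 (7.59 to 7.88 against 6.76 to 7.72, adjusted p = 0.0425) among 3.46% of genes, both against vehicle and F68/PG/PEG400. Cyp11a1 lost its call without 2M17, 2M24, 6M66 or 6M71 (0.26 to 0.49) and Cyp2s1 without 2M17, 2M23, 2M24, 6M65, 6M71 or 6M72 (0.38 to 0.63). Cyp2s1 was also not called with the array code as a term (adjusted p = 0.0538).

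Averaged over the iv agents, sorafenib at 24 h was accompanied in bone marrow by a fall of Cyp20a1 (-0.27, adjusted p = 0.00955) and a rise of Cyp46a1 (0.18, adjusted p = 0.0172) among 7.34% of genes. Cyp46a1 was no longer called without 4M47, 6M66 or 8M96 (0.15 to 0.22). With the array code as a term neither was called, with -0.24 for Cyp20a1 (adjusted p = 0.0718) and 0.14 for Cyp46a1 (adjusted p = 0.217). At 6 h Cyp27b1, Cyp4a1 and Cyp7b1 fell by 0.35, 0.38 and 0.34 among 5.23% of genes. Without the array of 4M45, one of the control rats, these were -0.19, -0.15 and -0.17 and not called, and single omissions of 10, 10 and 7 rats ended the calls. In temsirolimus rats alone, whose controls included 4M45, 6 members fell at 6 h with sorafenib among 22.1% of genes, and Cyp2u1 fell by 0.29 at 24 h (adjusted p = 0.0437) among 1.12%. Over all treatments, Cyp2u1 fell by 0.14 (adjusted p = 5.70e-04) between 24 h and 1 h and Cyp1b1 rose by 0.19 (adjusted p = 0.0468), where 6.39% of genes were called. Cyp1b1 had -0.012 with the array code as a term and was lost in 38 single omissions.

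Cyp4v3, the rat counterpart of the human fatty acid hydroxylase CYP4V2, differed between single rats on the probe set used in all 3 tissues. Rat 6M70, given temsirolimus and sorafenib and killed at 6 h, had the lowest signal in each tissue on that probe set, with 6.82 in the liver (next lowest 10.95, median 12.50), 6.64 in the heart (next 7.47, median 8.83) and 6.42 in bone marrow (next 7.39, median 8.49). On the second probe set the same rat was not the lowest, with 7.64 in the liver (rank 15 of 96, median 8.31), 5.53 in the heart (rank 10, median 5.88) and 4.51 in bone marrow (rank 34, median 4.55). The lowest signal of 6M70 was therefore seen on 1 of the 2 probe sets. Over the 95 other rats, deviations from the group means, taken without 6M70, went together in all pairs of tissues on the first probe set. The correlation was r = 0.76 between liver and heart (rho = 0.78), 0.84 between liver and marrow (rho = 0.81) and 0.79 between heart and marrow (rho = 0.81), each with an adjusted p of 1e-05 over these 3 of the 159 relations computed, the smallest that 100000 permutations can give. Without the 2 farthest rats r was 0.76, 0.86 and 0.84, and within the 6 array sets it was 0.48 to 0.92, 0.74 to 0.95 and 0.62 to 0.95. Of the 12 rats with the lowest signal in each tissue on that probe set, 8 were shared by all 3 tissues. This count was taken over all 96 rats and includes 6M70. Correlations between tissues were not computed for the second probe set. Leaving out 6M70 was chosen after the values were seen.

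**Figure D5:**
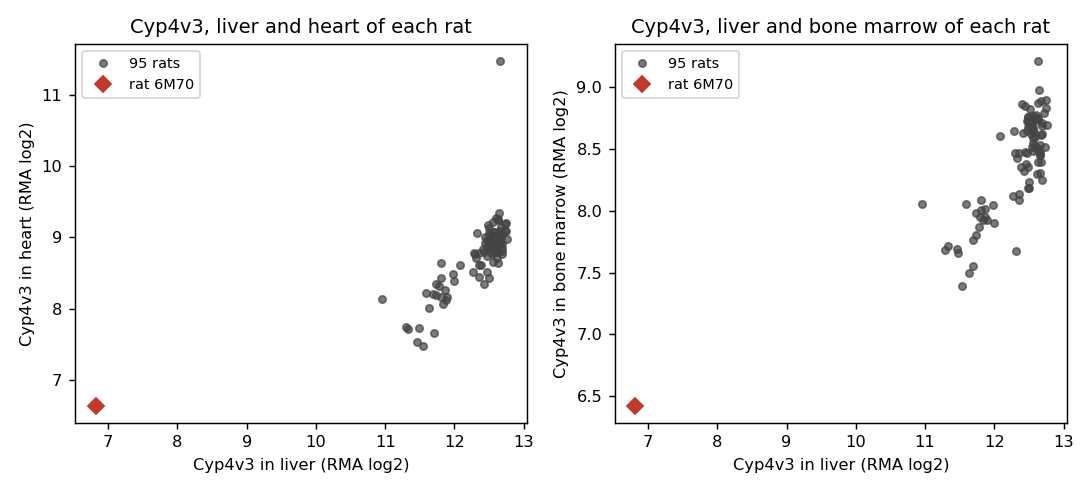
RMA signal of Cyp4v3 (log2) in the liver (horizontal axes) against the heart and against bone marrow of the same rat (vertical axes), with 96 rats as points. The probe set is the one used in all 3 tissues. Rat 6M70 is marked and lies lowest, at 6.82 in the liver, 6.64 in the heart and 6.42 in bone marrow.

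Further members with deviations shared between tissues of a rat were few. Deviations from the group mean were correlated over 96 rats for all 53 members and 3 pairs of tissues, 159 relations in all, by a permutation test. Cyp2j4, an arachidonic acid epoxygenase, had r = 0.58 between liver and heart (rho = 0.57, adjusted p = 3.97e-04, 0.62 without the 2 farthest rats and 0.47 to 0.84 within the 6 array sets of 16 rats). It had r = 0.40 between heart and marrow (rho = 0.40, adjusted p = 0.0146 by permutation, 0.41 without the 2 farthest and 0.09 to 0.81 within sets). Between liver and heart, Cyp2j10 had r = 0.37 (rho = 0.41, adjusted p = 0.0146 by permutation, 0.34 without the 2 farthest and -0.03 to 0.54 within sets) and Cyp26b1 r = 0.41 (rho = 0.39, adjusted p = 0.0309 by permutation, 0.29 without the 2 farthest and 0.12 to 0.54 within sets). All arrays of a rat lay in the same-numbered set.

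Among 9 liver members that differ between the sexes in rats, a list chosen after the values were seen, 36 relations were tested in the same way over 96 male livers, and 13 passed. Cyp2c11 and Cyp3a18, both male-typed, deviated together with r = 0.70 (rho = 0.62, adjusted p = 1.80e-04 by permutation, 0.64 without the 2 farthest rats and 0.44 to 0.84 within array sets). Cyp2c11 and Cyp2c13, also male-typed, had r = 0.63 (rho = 0.58, adjusted p = 1.80e-04 by permutation, 0.61 without the 2 farthest and 0.37 to 0.85 within sets). Cyp3a18 deviated against Cyp2c7 and Cyp2a1, which are higher in females, with r = -0.44 (rho = -0.52, adjusted p = 2.70e-04 by permutation, -0.65 to -0.12 within sets) and -0.41 (rho = -0.46, adjusted p = 0.00216 by permutation, -0.73 to -0.11 within sets). Without the 2 farthest rats, which were 3M28 and 6M67, these were -0.41 and -0.33. Cyp2c7 and Cyp2a1 went together with r = 0.55 (rho = 0.52, adjusted p = 2.70e-04 by permutation, 0.49 without the 2 farthest and 0.30 to 0.80 within sets). Cyp2c12, although female-typed, deviated against Cyp2c7 with r = -0.35 (rho = -0.35, adjusted p = 0.0251 by permutation, -0.37 without the 2 farthest and -0.59 to -0.08 within sets). Its relations did not pass with Cyp2a1 (r = -0.26, rho = -0.24, adjusted p = 0.0855 by permutation) or with Cyp3a18 (r = 0.13, rho = 0.22, adjusted p = 0.406 by permutation). Rats 3M28 and 6M67 had the 2 lowest signals of Cyp3a18, 11.42 and 11.90 where the median was 13.45. The same rats had the 2 highest signals of Cyp2c7, 14.72 and 14.80, and of Cyp2a1, 12.59 and 12.47. Among 96 livers in rising order, 3M28 and 6M67 ranked 1 and 6 for Cyp2c11 and 6 and 4 for Cyp2c13. They ranked 87 and 31 for the female-typed Cyp2c12, 9 and 57 for Cyp3a9, 25 and 27 for the male-typed Cyp3a2 and 11 and 16 for the male-typed Cyp2a2.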

How the data were processed

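Expression was measured on 288 Affymetrix rat genome arrays, 96 per tissue. The authors computed RMA values, so the deposited values are signals on the log2 scale, in which background correction and quantile normalization pull extreme arrays towards the rest of their tissue. The RMA version is not given in the sources used here. Arrays have no read depth, and 4 rats per group limit the precision.

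Values were used as deposited. Of 31099 probe sets, 20832 carried 1 symbol, 436 several and 9831 none in the platform annotation, which left 14218 genes, each read from its probe set of highest mean in a tissue. Members had 60 probe sets, 6 had several, and 50 used the same one in all tissues. Each tissue was fitted in R 4.3.3 with limma 3.58.1, with 24 group means and a term for the array set within each time, moderated variances and Benjamini-Hochberg adjustment over 14218 genes at 0.05. The array set parts the rats of a group into 2 pairs, mostly by the code in the study's array names, whose meaning is not stated. In some groups the rats of a pair carry different codes. An alternative used that code itself. The codes in use differ between times and in places between treatments, so with the code as a term these cannot be fully told apart. Named in the text are called members without overlap of rats, up to 4 rises and 4 falls per liver comparison and 3 in the other tissues, and a fixed set of drug-metabolising, retinoic acid and steroid genes. Members outside that rule (Cyp4v3, Cyp2j4, Cyp2j10, Cyp2c7, Cyp2a1, Cyp2c13, Cyp20a1, and called members whose rats overlapped) were chosen after their values were seen. Members and lists were chosen with earlier results of these data known. Alternatives were a filter at a log2 signal of 6, renewed quantile normalization, no array-set terms, the array code as a term, the mean or the other probe set of a gene, trended robust moderation, omission of single rats or outlying arrays, and hepatocyte markers as a covariate in the heart. Averages over the other agent or over all treatments were added after the values were seen. Correlations used 100000 permutations of rats within groups. The fit was tested on simulated data.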

Additional observations from a re-analysis of the deposited data

Results flagged for a closer look

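Of 56 groups of 4 rats examined for a rat far from the other 3, 29 of called members, 3 of Cyp4v3, which was called in no comparison and added after its values were seen, and 24 of hepatocyte markers in the heart, 8 stood out, 4 of them for hepatocyte markers, and chance gives about 1 in 20. Cyp11a1 in the liver had 7.80 in 7M78 after vehicle and sunitinib at 24 h, with 5.97, 6.13 and 6.17 in its group. Cyp19a1 in the liver had 5.78 in 1M6 after vehicle and water at 24 h, with 5.43, 5.43 and 5.47 in the other 3. Cyp2s1 in bone marrow had 7.59 in 6M66 after temsirolimus and sorafenib at 24 h, below 7.86, 7.86 and 7.88. Cyp4v3 in the liver had 6.82 in 6M70 after temsirolimus and sorafenib at 6 h, below 11.87, 12.60 and 12.72.

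Hepatocyte markers in the heart stood out in 4 rats. They had 14.06 in 6M68 after temsirolimus and sorafenib at 1 h, 11.97 in 4M42 at 24 h after temsirolimus with F68/PG/PEG400, 9.45 in 5M55 after temsirolimus and sunitinib at 1 h and 7.78 in 1M5 after vehicle and water at 24 h. The other 3 hearts of each group had 6.12 to 6.56.

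3 probe sets with several symbols, which belong to no member, also passed the test. The one of Cyp2b1 and Cyp2b2 had -0.77 in the liver between 6 h and 1 h over all treatments (adjusted p = 7.57e-06). The one of Cyp2a1 and Cyp2a2 had -0.15 in the liver between 24 h and 1 h, and the one of Cyp4a2 and Cyp4a3 had 1.73 in the heart 6 h after temsirolimus, where hepatocyte markers were raised in 8 of 16 temsirolimus hearts and in 2 of 16 others.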

How the results depend on the processing

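No paired analysis was possible because each rat gave 1 array per tissue and no comparison between tissues of a rat was tested for a treatment. Counts of called members follow as the value reported, with the range when single rats were left out. In the liver, temsirolimus alone gave 2 (0 to 3), with 1 without array-set terms, with mean probe sets, with trended robust moderation or without 4M48. Sunitinib alone gave 2 (0 to 17), with 0 after renewed quantile normalization, without array-set terms, with mean probe sets or without 7M78, and 4 with the array code or without 4M48. Sorafenib alone gave 2 (0 to 3), with 1 with mean probe sets. Temsirolimus with sunitinib gave 1 (0 to 1), and temsirolimus with sorafenib gave 1 (0 to 1). F68/PG/PEG400 against water, sunitinib in temsirolimus rats and averaged F68/PG/PEG400 gave 0 throughout single omissions. The interactions gave 0 (0 to 1). Sorafenib in temsirolimus rats gave 0 (0 to 2), with 1 with mean probe sets and 2 without 7M78. Hours in vehicle rats gave 2 (2 to 6), with 4 after renewed quantile normalization and 6 without 7M78. Averages gave 9 (8 to 13) for temsirolimus, 0 (0 to 9) for sunitinib and 5 (3 to 5) for sorafenib, the last with 3 without array-set terms or without 4M48, and hours over all treatments gave 21 (17 to 27).

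In the heart, all treatments gave 0 (0 to 23), and 1 without the 31 hearts with raised hepatocyte markers. Hours in vehicle rats gave 1 (0 to 1), with 0 without array-set terms, with the array code or without those hearts. Averages gave 11 (6 to 23), with 4 after the filter, 0 without array-set terms, 7 with the array code, 1 with hepatocyte markers as a covariate and 2 without those hearts. Hours over all treatments gave 5 (4 to 9), with 17, 8 and 2 under the last 3 of these. With that covariate, 8 rises after temsirolimus at 6 h turned to falls, Cyp2b3 -0.18, Cyp2c11 -0.027, Cyp2c12 -0.043, Cyp2c22 -0.29, Cyp2c6v1 -0.028, Cyp2d2 -0.27, Cyp3a18 -0.23 and Cyp3a2 -0.13. In bone marrow, all treatments gave 3 (1 to 12), with 1 without array-set terms or with the array code and 7 without 4M45. Averages gave 5 (2 to 34), with 3 after the filter or with the array code and 1 without array-set terms. Hours over all treatments gave 2 (1 to 13), with 1 without array-set terms or with a term for the arrays marked N2 and 13 without 4M45, and hours in vehicle rats gave 0 throughout. Cyp1b1 in bone marrow between 24 h and 1 h turned to -0.012 with the array code. Where not named, the cause was not tested.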
